A study of Mus musculus with 8 samples.

Results

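Thyroid hormone is needed for heat production in brown adipose tissue (BAT), and 7 genes of its action were examined for ATAC-seq peaks in BAT. Dio1, Dio2 and Dio3 encode the deiodinases, Slc16a10 encodes the transporter MCT10, Thra and Thrb encode the nuclear receptors, and Thrsp is a classical target gene of the hormone in fat-making tissues. The position of a peak was taken for a gene when it lay between the gene's ends, or up to 50 kb from the transcription start site (TSS) of one of its RefSeq mRNAs. By this rule 36 of the 32173 positions in the authors' list were at 6 of the 7 genes, and none was at Dio3.

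The positions come from ATAC-seq, in which the Tn5 transposase cuts DNA where nucleosomes leave it accessible. Nuclei came from BAT of 2 WT mice and of 2 Dot1L-BKO mice, each mouse processed as its own library. Dot1L-BKO mice carry a deletion of Dot1l, which encodes the H3K79 methyltransferase, in Ucp1+ cells through Ucp1-Cre, so that other cells of the depot keep the gene. All 4 mice were on chow diet, 12 weeks old and kept at 4°C for 4 hr before BAT was taken, so no group at room temperature or thermoneutrality was included. MACS2 gave 1 summit, the highest point of a peak, with the −log10 of its q-value, called the score here. This single list names the WT libraries against the Dot1L-BKO libraries, and it is not stated which of them entered the call as treatment or as control. The paper describes MACS2 peaks of each sample joined into a union of regions, but whether this list is that union is not stated either. If one genotype served as control, a summit and its score would measure enrichment of the other genotype over it and not accessibility as such, and these readings cannot be told apart. Since no library has values of its own, depth is unknown, the genotypes could not be set against each other, no replicate error exists, and every value below is a description with no test. Whether a gene with no summit was closed, or lay under the cutoff, cannot be told apart, and neither can weak opening in many nuclei and strong opening in few.

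The deiodinases set how much active hormone a cell holds. The type 2 enzyme, from Dio2, makes T3 from T4 by removing an iodine of the outer ring, and it is the form induced in BAT by cold and noradrenaline through cAMP. The type 1 enzyme, from Dio1, works mainly in liver, kidney and thyroid, and the type 3 enzyme, from Dio3, inactivates T4 and T3. T3 enters cells through transporters such as MCT10 and binds receptors that sit on DNA with RXR partners, most often at repeats of the hexamer AGGTCA. Without hormone these receptors hold corepressors, and with hormone they hold coactivators.

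For the tissue label, promoter summits, meaning summits within 1 kb of a TSS, were counted over short marker lists. They were present at 5 of 6 brown adipocyte genes (all but Adrb3) and at 4 of 4 general adipocyte genes, beside 45.2% of 21000 RefSeq mRNA genes. Of the other lists they were present at 1 of 3 endothelial, 0 of 3 leukocyte, 0 of 3 skeletal muscle, 1 of 3 liver, 0 of 2 neuron and 1 of 2 thyroid genes.

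Of the 7 genes, 4 had a promoter summit, beside 45.2% of all genes. The 4 were Dio2, Thrb, Thrsp and Slc16a10. A summit by the wider rule was present at 6 of the 7, beside 72.5% of all genes, and at 5 of the 7 at least 1 such summit had the gene's own TSS as the nearest of any gene, beside 54.4%. A promoter summit with a score of 10 or more was present at 2 of the 7, Thrb and Thrsp, beside 23.5%. With 7 genes, each of these shares changes much with 1 gene, and they are read as near the background.

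The sequences around the starts are shown because the summits of Dio2, Thrb, Thrsp and Slc16a10 fall in or next to them, while Dio1, Dio3 and the inner start of Thrb, which have none, serve as the counterparts. They run 5′ to 3′ on the gene's strand from 250 bases before the TSS through the first 30 transcribed bases, and come from RefSeq (GRCm38.p6, which is mm10). The table of promoters matched 6 of the 7 genes, and Thra had no entry. Capitals mark exact matches, on either strand, to 13 short patterns. These were AGGTCA, its direct repeats with 4 bases (DR4) and 1 base (DR1) between, TCAAGGTCA (ERR), TGACG and TGACGTCA (cAMP response element, CRE), TTGCNNAA (C/EBP), TTGGCA (NFI), CCCNNGGG (EBF), TGANTCA (AP-1), CACGTG (E-box), GGGCGG (GC box) and CCGGAAG (ETS), where TGACG is part of TGACGTCA and AGGTCA is part of the repeats and of TCAAGGTCA.
Dio2, chr12:90739009-90739288, minus strand: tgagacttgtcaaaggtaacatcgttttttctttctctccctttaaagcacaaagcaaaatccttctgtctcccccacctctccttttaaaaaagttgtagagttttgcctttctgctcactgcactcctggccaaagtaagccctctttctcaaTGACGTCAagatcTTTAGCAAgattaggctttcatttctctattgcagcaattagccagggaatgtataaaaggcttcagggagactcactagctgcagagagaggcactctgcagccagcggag
Dio1, chr4:107307139-107307418, minus strand: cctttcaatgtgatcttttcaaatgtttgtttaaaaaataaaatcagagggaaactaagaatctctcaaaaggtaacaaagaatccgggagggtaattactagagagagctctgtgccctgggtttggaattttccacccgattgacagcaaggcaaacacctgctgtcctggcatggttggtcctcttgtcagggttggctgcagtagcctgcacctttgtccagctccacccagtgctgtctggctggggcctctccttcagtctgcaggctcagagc
Dio3, chr12:110278980-110279259, plus strand: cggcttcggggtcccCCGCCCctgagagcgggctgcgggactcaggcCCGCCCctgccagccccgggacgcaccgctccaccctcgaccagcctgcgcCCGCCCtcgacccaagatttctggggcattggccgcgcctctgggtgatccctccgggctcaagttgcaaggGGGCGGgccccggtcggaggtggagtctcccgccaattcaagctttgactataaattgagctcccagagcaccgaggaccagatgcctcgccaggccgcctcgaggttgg
Slc16a10, chr10:40142225-40142504, minus strand: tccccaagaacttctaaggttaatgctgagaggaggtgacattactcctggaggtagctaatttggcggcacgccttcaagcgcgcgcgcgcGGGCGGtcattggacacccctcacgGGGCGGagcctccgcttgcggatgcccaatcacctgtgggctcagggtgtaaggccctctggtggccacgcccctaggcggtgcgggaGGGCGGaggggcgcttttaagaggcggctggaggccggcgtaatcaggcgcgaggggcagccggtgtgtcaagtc
Thrb, upstream start, chr14:17660710-17660989, plus strand: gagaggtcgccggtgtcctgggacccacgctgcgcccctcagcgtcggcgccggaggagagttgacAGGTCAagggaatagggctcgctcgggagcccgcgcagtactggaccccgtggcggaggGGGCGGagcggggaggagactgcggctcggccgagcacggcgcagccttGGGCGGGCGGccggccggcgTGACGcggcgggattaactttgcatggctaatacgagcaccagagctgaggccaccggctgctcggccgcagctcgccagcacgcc
Thrb, inner start, chr14:17981394-17981673, plus strand: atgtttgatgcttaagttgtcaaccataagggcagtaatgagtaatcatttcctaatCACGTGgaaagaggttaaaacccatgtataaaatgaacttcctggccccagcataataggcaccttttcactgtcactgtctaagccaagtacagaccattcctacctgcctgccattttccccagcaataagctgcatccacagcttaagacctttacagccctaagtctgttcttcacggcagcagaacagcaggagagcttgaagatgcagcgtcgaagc
Thrsp, chr7:97417521-97417800, minus strand: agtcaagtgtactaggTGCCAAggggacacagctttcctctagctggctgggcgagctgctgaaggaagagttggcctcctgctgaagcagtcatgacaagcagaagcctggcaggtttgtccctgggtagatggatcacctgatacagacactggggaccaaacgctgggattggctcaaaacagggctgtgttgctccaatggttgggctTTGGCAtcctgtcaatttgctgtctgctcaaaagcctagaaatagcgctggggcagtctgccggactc

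Dio2, at chr12:90724552-90739038 on the minus strand, encodes a protein of 262 amino acids over 2 exons. Its first summit, at 90739035, had a score of 6.02 and rank 12417 of the list. It sat 3 bp inside the 5′ UTR of exon 1 of the RefSeq mRNA, but at −597 bp from the GENCODE start. The promoter printed above holds a full cAMP response element from −95 to −88 and a C/EBP pattern from −82 to −75 on the opposite strand. Within 100 bp of a summit TGACGTCA was found at this 1 of the 36 summits, starting 91 bp away, beside 1.03% of the list, and in all promoters of the RefSeq table it was found in 1.79%. The second summit, at 90724869 in the 3′ UTR of exon 2, had a score of 4.16, which 1942 summits of the list share, and also held TGACG.

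Beyond the 50 kb window Dio2 had more. The nearest summits outside it, at 93416 and 94967 bp past the TSS and thus beyond the 3′ end of the gene, had scores of 12.2 and 41.0, and Dio2 was the nearest TSS to both. A further pair lay at 148091 and 158961 bp with scores of 9.21 and 7.38, so that 6 summits at any distance had Dio2 as the nearest gene. The summit of score 41.0 ranked 847 of 32173, well above the summit at the start of the gene. It enters no count here, and nearness does not show that it acts on Dio2.

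Dio1, at chr4:107291465-107307168 on the minus strand, had 1 summit by the rule. It had a score of 8.65, lay at −7147 bp from the Dio1 start, and was at −48 bp from the start of Yipf1, so no summit of the list had Dio1 as its nearest gene. Dio3, at chr12:110279230-110281097 on the plus strand, is a single-exon gene, and its nearest summit was 92136 bp downstream with a score of 1.52, close to the list's cutoff of 1.30. A pair of summits upstream, at −266811 and −266042 bp from the start, had Dio3 as the nearest mRNA gene with scores of 3.52 and 6.84. Of the deiodinase genes, then, Dio2 was the one with a summit at its start.

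**Figure D1:**
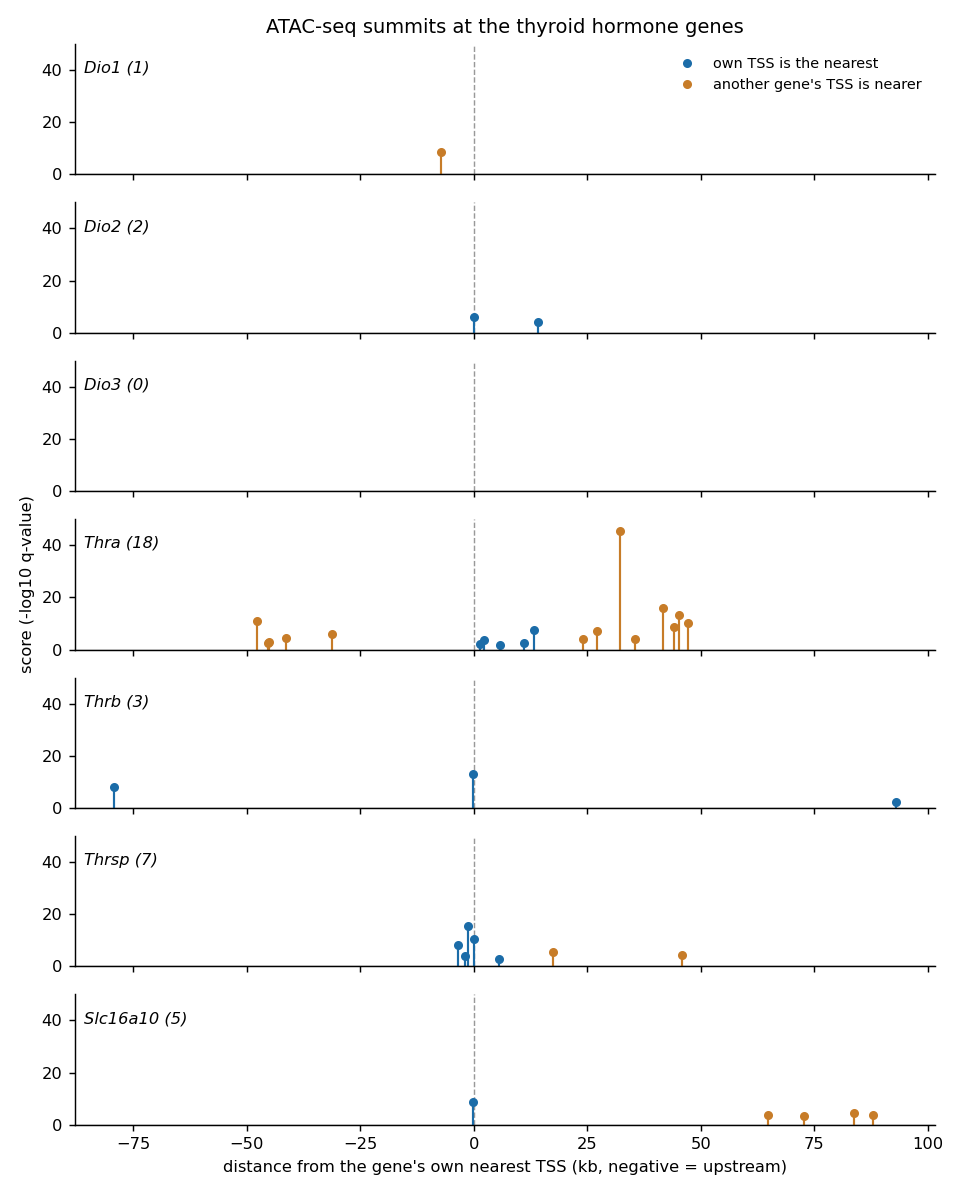
Score (−log10 q-value, vertical axis) of each summit against its distance in kb from the gene's own nearest TSS, one panel per gene with the number of summits in brackets. Blue summits have the gene's own TSS as the nearest and orange ones that of another gene; the highest summit, 45.5 at Thra, is orange and Dio3 is empty.

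Slc16a10, at chr10:40033535-40142254 on the minus strand, encodes MCT10, which carries T3, T4 and aromatic amino acids across the plasma membrane. A summit of score 8.65 lay 93 bp upstream of its TSS, in a promoter with GC boxes that start at −158, −133 and −45. The other 4 summits were in introns, 64718 to 88000 bp past the TSS, with lower scores of 3.32 to 4.61. Mfsd4b1 was the nearest TSS to each of those 4, at 28986 to 52268 bp. At a score minimum of 5 the promoter summit alone was left.

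The receptor genes differed in where their summits lay. Thra, at chr11:98741785-98769006 on the plus strand, encodes TRα1 and the TRα2 variant, which does not bind the hormone, from mRNAs of 410 and 492 amino acids with a shared TSS. It had 18 summits, the most of the 7 genes, and 4.22% of all genes had at least as many. None was within 1 kb of the TSS, and the nearest was at +1423 bp in intron 1 with a score of 2.15.

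Only 5 of the 18 had Thra as the nearest TSS. These lay 1423 to 13241 bp inside the gene, 4 in intron 1 with scores of 1.83 to 3.75 and 1 in intron 2 with a score of 7.47. The lowest of them, 1.83, was the one summit of the 36 in masked repeat sequence. The intron 2 summit, at 98755026, held AGGTCA 20 bp from its peak and the EBF pattern on the other side.

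The other 13 were nearer to neighbouring genes. On the upstream side, 5 summits with scores of 2.42 to 10.9 were nearest to Csf3, which encodes a granulocyte growth factor, and of these the one of 10.9 lay in an intron of Psmd3 and another, of 5.93, in an intron of Med24. From the last intron of Thra onwards, 5 were nearest to Nr1d1 and 3 to Msl1. Nr1d1 encodes REV-ERBα, a heme-binding repressor of the clock, and runs against Thra so that the genes overlap at their 3′ ends. The summit of score 7.05 at 98768914 was both in the last exon of Thra and in an intron of Nr1d1.

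The highest score of all 36 summits, 45.5 at rank 689, was in Nr1d1, 1393 bp inside that gene from its TSS and 32199 bp from the Thra TSS. A score of 15.9 was found 8109 bp upstream of Nr1d1. Near Msl1, which encodes a subunit of a histone acetyltransferase complex, the scores were 8.65, 13.4 and 10.4. Thus all 5 of the Thra summits with a score of 10 or more were nearest to another gene, and the highest that was nearest to Thra itself was 7.47. The outermost summits inside the 50 kb limit lay at −47688 and +47192 bp with scores of 10.9 and 10.4, and the first outside it at −50755 and +52952 bp with scores of 4.16 and 9.21.

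Thrb, at chr14:17660960-18038088 on the plus strand, is the longest of the 7 genes at 377129 bp and had 3 summits, or 0.702 per 100 kb of the gene and its flanks, beside 1.21 per 100 kb over the genome. It has mRNAs from separate starts, one at 17660960 for the 461 amino acid receptor (TRβ1) and one at 17981644 for the 475 amino acid receptor (TRβ2), a form best known from pituitary, hypothalamus and retina. At the upstream start a summit of score 13.1, rank 5558, lay at −145 bp. The inner start had no summit nearer than 79138 bp.

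The upstream promoter is rich in G and C, and the sequence above shows 3 GC boxes, of which a pair overlaps, an AGGTCA from −184 to −179 and a TGACG from −56 to −52. The inner promoter holds an E-box. Of the 2 intronic summits, that at 17753843 had a score of 2.49 and that at 17902506 a score of 8.12. The latter, 79138 bp before the inner start, is printed below because it is the higher intronic summit of a receptor gene and holds AGGTCA on the minus strand at 35 to 40 bp, C/EBP patterns on the minus strand at −23 to −16 and 40 to 47 bp, the second sharing 1 base with AGGTCA, and an AP-1 pattern at 85 to 91 bp. Positions are counted from the summit, which is the middle base of 201.
Thrb, intronic summit, chr14:17902406-17902606, plus strand: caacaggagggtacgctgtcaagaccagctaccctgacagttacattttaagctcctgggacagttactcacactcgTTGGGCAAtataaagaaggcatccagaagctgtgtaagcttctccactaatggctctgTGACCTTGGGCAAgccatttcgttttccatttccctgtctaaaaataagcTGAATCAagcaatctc

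Thrsp, at chr7:97412933-97417550 on the minus strand, encodes Spot 14, a nuclear protein of lipogenesis whose transcription rises with T3. It had 7 summits, and 5 of them had Thrsp as the nearest TSS, over a span of 8963 bp. The promoter summit had a score of 10.4 and lay at +79 bp in the coding part of exon 1. The promoter holds the NFI pattern from −234 to −229 on the opposite strand and from −38 to −33.

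Upstream of it lay 3 more, at −1358, −1872 and −3496 bp, with scores of 15.4, 4.04 and 8.12. The first of these was the highest at Thrsp and, of the 16 summits taken by the 50 kb rule that were nearest to one of the 7 genes, the highest, at rank 4427. None of the 13 patterns was found within 100 bp of it, which says only that these letters are absent there. The third held AGGTCA, 19 to 24 bp past the summit on the gene's strand. Both windows follow, the first without capitals.
Thrsp, summit at −1358, chr7:97418808-97419008, minus strand: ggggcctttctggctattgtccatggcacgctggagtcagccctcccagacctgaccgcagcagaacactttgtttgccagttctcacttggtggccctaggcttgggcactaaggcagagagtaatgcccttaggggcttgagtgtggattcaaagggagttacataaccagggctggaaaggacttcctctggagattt
Thrsp, summit at −3496, chr7:97420946-97421146, minus strand: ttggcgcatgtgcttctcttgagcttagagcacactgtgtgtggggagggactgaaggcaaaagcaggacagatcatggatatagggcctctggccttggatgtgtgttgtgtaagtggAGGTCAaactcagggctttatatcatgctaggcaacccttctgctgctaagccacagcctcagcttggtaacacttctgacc

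The last of the 5 lay at +5467 bp, past the 3′ end, with a score of 2.92. The remaining 2 were at the starts of neighbours, 101 bp from that of Ndufc2, a subunit of respiratory complex I, with a score of 5.55, and 91 bp from that of Alg8, an enzyme of N-glycan synthesis, with a score of 4.56. Thrsp thus had its higher summits at or just upstream of its own start, while the higher ones by the rule at Thra were nearer to other genes' starts.

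The 36 summits had a median score of 5.08 (95% binomial interval 4.04 to 8.12, for counting error only), beside 5.001 over the whole list. This interval takes the 36 as independent, although 18 of them are at Thra, and it is no test against the list. Their quartiles were 3.71 and 8.65, beside 3.05 and 9.39 in the list. A score of 5 or more was reached by 18 of the 36 and one of 10 or more by 8, or 22.2%, beside 23.5% of the list. Without the 18 summits of Thra the median was 5.08. Within 1 kb of a TSS of the 7 genes lay 4 summits, 11.1% (95% Wilson interval 4.41 to 25.3%, for counting error only), and within 1 kb of a TSS of any gene 8, or 22.2%, beside 32.2% of the list. This last share turned with Thra, since without its summits it was 7 of 18, or 38.9%, above that of the list.

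**Figure D2:**
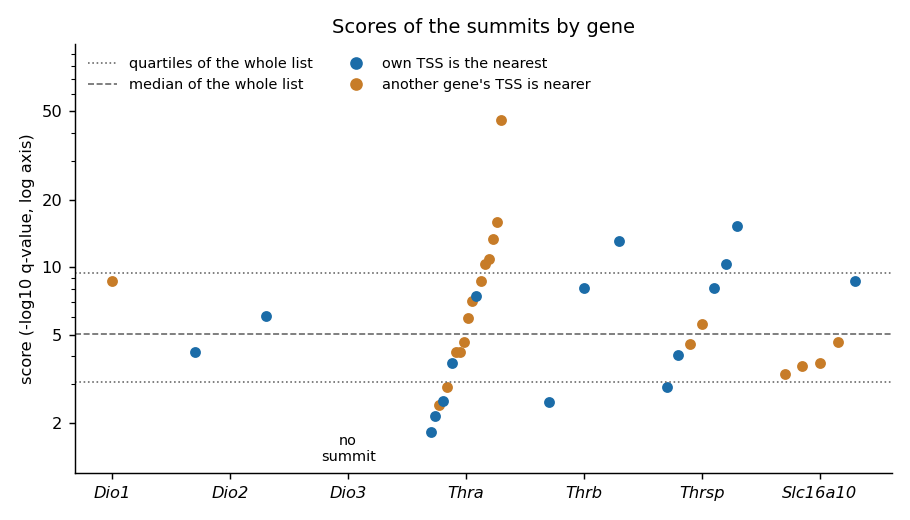
Scores (−log10 q-value, log axis) of the 36 summits by gene, sorted within a gene, with the median of the whole list (5.001, dashed) and its quartiles (3.05 and 9.39, dotted). Blue points have the gene's own TSS as the nearest and orange ones that of another gene; at Thra all 5 points above the upper quartile are orange, and at Thrsp and Thrb the points above it are blue.

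Scores came in steps. The list has 2606 distinct values for its 32173 summits, and each of the 36 shared its value with other summits. The summits at the starts of Yipf1 and Slc16a10 and 1 near Msl1 had the same score of 8.65, which 717 summits of the list hold, so their order cannot be given.

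By place in their own gene, 11 summits were upstream, 12 in introns, 2 in a 3′ UTR exon, 1 in a 5′ UTR exon, 1 in a coding exon and 9 downstream. The 201 bp windows around them had a median GC content of 54.5%, beside 56.2% in the list, and a median CpG ratio, observed over expected, of 0.272, beside 0.346. In masked repeat sequence lay 1 of the 36, or 2.78%, beside 12.9% of the list.

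Of the 13 patterns, AGGTCA was found within 100 bp of 10 of the 36 summits, 27.8%, beside 15.2% of the list. By the 50 kb rule they were 4 at Thra, 2 each at Thrb, Thrsp and Slc16a10, and none at a deiodinase gene. Only those at 13241 bp of Thra, −145 and −79138 bp of Thrb and −3496 bp of Thrsp were nearest to the gene's own TSS. The others, among them both at Slc16a10, were nearer to the TSS of another gene. The repeats DR4 and DR1 and the ERR pattern were found at 0 of the 36, beside 0.0124%, 0.0870% and 0.454% of the list. TGACG was found at 5 (13.9%, beside 14.8%), C/EBP at 5 (beside 10.9%), NFI at 5 (beside 10.9%), the GC box at 5 (beside 20.6%), EBF at 3, all at Thra (8.33%, beside 15.7%), AP-1 at 3 (beside 6.40%), the E-box at 2 (5.56%, beside 4.68%) and ETS at 2 (beside 5.38%). A match is not a bound site, and exact letters miss most variants of these sites.

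The promoters themselves were of separate kinds. The 300 bp windows of Thrb at the upstream start and of Slc16a10 had CpG ratios of 0.946 and 0.829, in the highest quintile of 32851 RefSeq promoters, of which 75.7% had a summit within 1 kb. Dio2 and Thrsp had ratios of 0.202 and 0.185, in the second lowest quintile, of which 8.64% had one. Dio1, at 0.162, and the inner start of Thrb, at 0.255, were in that same quintile and had none. Dio3, with a ratio of 0.701, was in the second highest quintile, of which 57.7% had a summit and the rest, like Dio3, had none. The nearest summit of Dio3 was the one at 92136 bp.

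**Figure D3:**
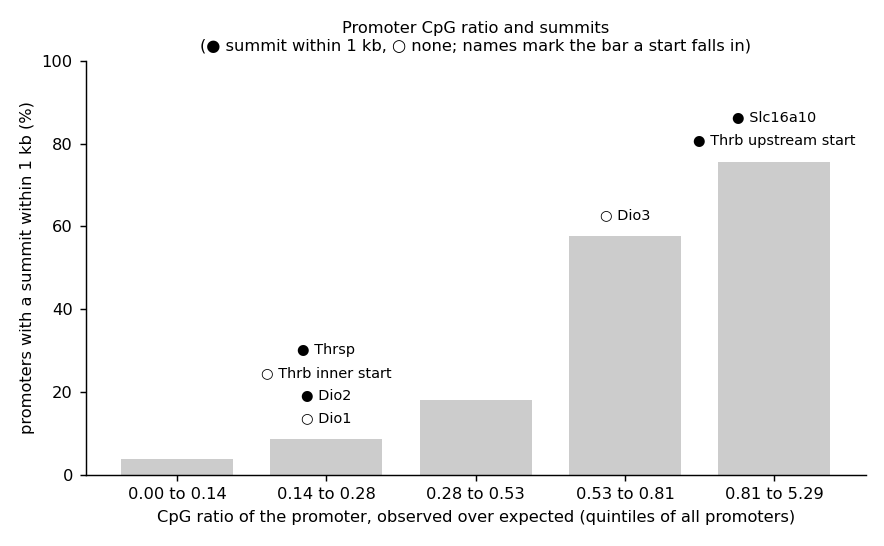
Share of RefSeq promoters with a summit within 1 kb (%, bars) in quintiles of the CpG ratio, observed over expected; the names mark the quintile of 7 starts of 6 of the genes (Thra had no promoter entry), with filled circles for those with a summit and open circles for those without. The bars climb from 3.90% to 75.7%; Dio2 and Thrsp are filled above the bar of 8.64%, and Dio3 is open above the bar of 57.7%.

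Another 45 genes of the pathway were described by role, 34 of them outside the lists for the thyroid gland and the pituitary axis. All matched the annotation. Of the 34, 19 had a promoter summit and 30 a summit by the rule, beside 45.2% and 72.5% of all genes. Of the 11 genes listed for the thyroid gland and the pituitary axis, 2 had a promoter summit and 5 one by the rule.

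Counts by role were small, and the roles were not tested against each other or against the 45.2% of all genes with a promoter summit. Of 4 further transporter genes, Slco1c1 and Slc17a4 had no summit by the rule, and Slc7a5 and Slc7a8, which encode amino acid exchangers, had 9 and 4 with highest scores of 38.7 and 10.9 but none at a promoter. Slc16a10 was thus the one of these 5 transporter genes with a promoter summit. Of 3 genes of binding and deiodination, Crym and Iyd had no summit, and Ttr, which encodes the plasma carrier transthyretin, had 5 with none at its promoter.

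Deiodinase 2 is switched off by ubiquitin, which WSB1 and the ligase of Marchf6 add and USP20 and USP33 remove. Promoter summits were present at Usp20 (66.3), Wsb1 (11.5) and Usp33 (6.53), and Marchf6 had none. All of the RXR partners had one, Rxrb at 37.6, Rxrg at 14.7 and Rxra at 7.05. Of the corepressor genes 3 of 5 had one, with Hdac3 at 8.12, Ncor1 at 7.58 and Gps2 at 7.05, and the nearest summits of Tbl1x and Tbl1xr1 were 1847 and 1664 bp from a TSS. Of the coactivator genes 6 of 7 had one, with Ppargc1a at 20.8, Ncoa2 at 19.4 and Ncoa3 at 8.65 the highest, and that of Crebbp was 1262 bp away.

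Of 8 further hormone targets, 4 had a promoter summit. Ucp1, the uncoupling protein of BAT, had a score of 33.7 at −26 bp, and Klf9, a direct target in many tissues, had 26.9. Fasn (fatty acid synthase) had 14.0 and Bcl3, named outside the rule after its value was seen, had 2.33. Hr, Me1, Acaca and Nr1d1 had none within 1 kb, although Hr had 12 summits by the rule with a highest score of 59.5. With its 10.4, Thrsp was below Ucp1, Klf9 and Fasn and above Bcl3.

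Of the gland genes, Tg, Pax8 and Nkx2-1 had no summit by the rule, Duox2 and Foxe1 had 1 each away from the promoter, and Slc5a5, the iodide transporter, had a promoter summit of 5.07. Of the axis genes, Tshb, Trh and Trhr had none, Cga had 2 away from the promoter, and Tshr, the receptor of thyrotropin, had a promoter summit of 3.75. Tshr is also expressed in adipocytes.

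**Figure D4:**
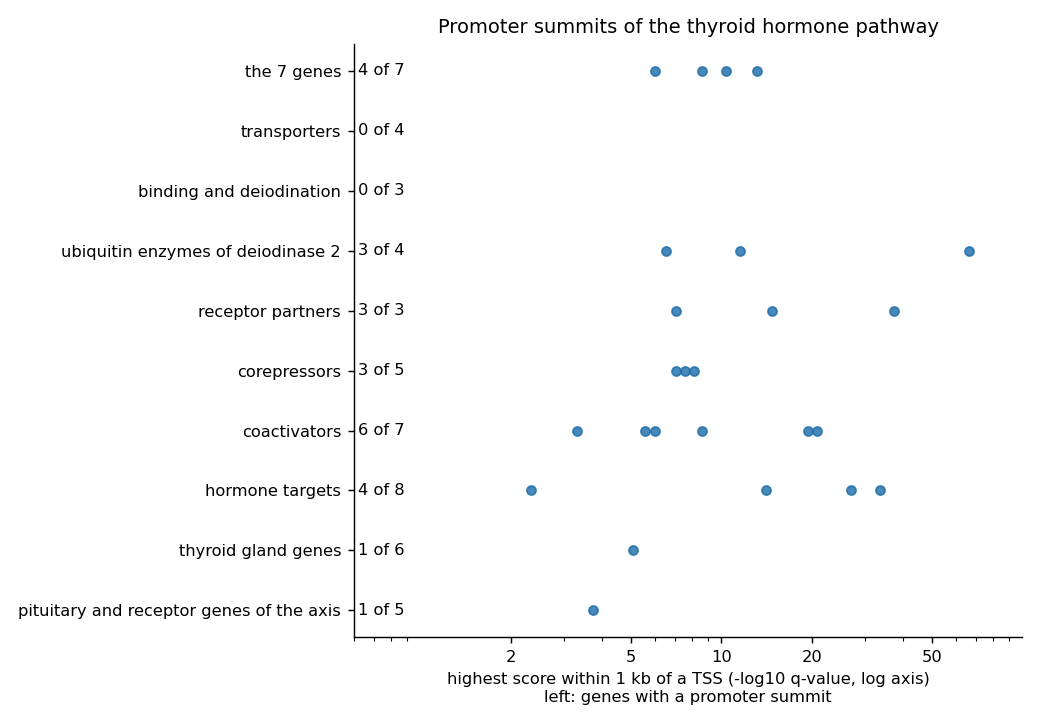
Highest score (−log10 q-value, log axis) within 1 kb of a TSS for the 7 genes and for 45 further genes of the pathway by role, one point per gene with a promoter summit; the numbers at the left give how many of how many genes had one. Transporters and the genes of binding and deiodination have no point, and the 4 points of the 7 genes run from 6.02 to 13.1.

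Set beside the PPAR and RXR receptor genes under the same rule, the thyroid hormone receptor genes are given as values with no test. All 6 PPAR and RXR genes had a promoter summit, beside 45.2% of all genes, with Ppara at 22.4, Pparg at 19.1 and Ppard at 4.16 besides the RXR values above, and of the thyroid hormone receptor genes Thrb had one and Thra had none. The score at Thrb, 13.1, was below those of Ppara, Pparg, Rxrb and Rxrg and above those of Ppard and Rxra. By number of summits Thra, with 18, was near Ppard, Rxra and Rxrb, with 16, 17 and 17, and below Ppara, with 29. At Ppara all 29 and at Rxra all 17 had the gene's own TSS as the nearest, at Ppard 10 of 16, at Thra 5 of 18 and at Rxrb 1 of 17. Thrb, Pparg and Rxrg had few, with 3, 3 and 1.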

How the data were processed

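Nuclei from BAT of 2 WT mice and 2 Dot1L-BKO mice were used for ATAC-seq. In Partek Flow, the authors mapped paired-end reads with BWA (genome mm10), and MACS2 2.1.1 in ATAC mode called the peaks (q-value cutoff 0.05, fold enrichment cutoff 2.0). The submitters' processing notes also name CASAVA, bcl2fastq 2.2 and cutadapt 1.2.1. The deposited values are 1 summit per peak with the −log10 of its q-value, in a single list that names the 2 WT libraries against the 2 Dot1L-BKO libraries, without stating which were treatment and which control. Handling of mitochondrial and duplicate reads and any Tn5 shift are not given in the sources used here. The RNA-seq libraries were not analysed here.

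Summits were placed on curated RefSeq mRNAs (GRCm38.p6, chromosomes 1 to 19, X and Y; 21000 genes, 25999 TSSs). The 7 genes and the lists were chosen with earlier results of these data known. Genes named by rule were the 7, those sharing a summit with them or nearest to one, and the PPAR and RXR genes. From the lists these were the genes with no promoter summit and the 3 highest per role. Bcl3 and the neighbours outside the 50 kb limit were named after their values were seen. A further 3 pathway genes entered no count and are not reported here. Genotypes could not be compared, and no test was made. Patterns were matched exactly on both strands within 100 bp of a summit. On simulated data 200 of 200 summits were assigned as placed. Alternatives changed the score minimum, the windows, the transcripts, the nearest gene, merging and repeats. Python 3.11.15, numpy 2.4.6, scipy 1.17.1 and matplotlib 3.10.9 were used.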

Additional observations from a re-analysis of the deposited data

How the results depend on the processing

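Results were recomputed under 11 settings, of which the start sites of GENCODE were added after the data were seen. A score minimum of 5 left 18 summits with a median of 8.65, and 36.1% of all genes had a promoter summit and 63.3% one by the rule. A minimum of 10 left 8 summits at 3 genes with a median of 13.3, 2 genes had a promoter summit, and the shares of all genes were 23.5% and 48.9%. A limit of 10 kb gave 23 summits and 58.1% of all genes by the rule. With 100 kb there were 51 summits at all 7 genes, with 1 at Dio3, beside 81.5% of all genes. Only summits nearest to the gene's own TSS gave 16 and 54.4%. The share of all genes with a promoter summit was 41.4% within 500 bp and 50.03% within 5 kb, where Thra was added as the fifth gene. It was 46.5% with predicted mRNAs and 44.4% without masked repeats, where 68.8% had one by the rule. The share of the summits within 1 kb of one of the genes' TSSs, 11.1%, was 22.2% with a score of 5 or more, 25% with 10 or more, with the own TSS nearest or within 5 kb, and 17.4% under the 10 kb limit. The highest score at Thra was 7.47 in place of 45.5 under 10 kb or with the own TSS nearest. Under 100 kb that at Dio2 was 41.0 in place of 6.02, at Dio1 20.5 in place of 8.65 and at Thrsp 22.7 in place of 15.4. With GENCODE starts the same 4 genes had a promoter summit, although the Dio2 summit then lay at −597 bp from its start in place of +3 bp. Of 100 single-gene values 23 moved. No paired analysis was possible because each summit has 1 score and none per library, and for the same reason no replicate was left out.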

Other observations

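Both receptor genes had a gene of the REV-ERB repressors as a neighbour on the same chromosome, and a summit at that neighbour had a higher score than any summit nearest to the receptor gene itself. At Thra it was the summit of 45.5 in Nr1d1 (REV-ERBα), 1393 bp from the Nr1d1 start. Downstream of Thrb the first summit outside the 50 kb limit, 257538 bp from the inner Thrb start, was 76 bp from the start of Nr1d2 (REV-ERBβ) and had a score of 65.8. The summits nearest to the receptors' own starts had scores of 2.15 at Thra and 13.1 at Thrb. Nr1d2 was named after its value was seen, and the scores of separate summits carry no replicate error.

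At the other loci the first summits outside the limit lay at varied distances from other genes. At Dio1 they were 36 bp from the start of Hspb11, with a score of 20.5, and 82 bp from that of Ndc1, with 7.05. At Thrsp one of 14.7 lay 3 bp from the start of Ints4 and one of 5.07 lay 18953 bp from that of Kctd21. At Slc16a10 those of 4.61 and 4.16 lay 104 bp from the start of Rpf2 and 645 bp from that of Gtf3c6. The first at Dio3, of 1.52, was 75858 bp from the start of Ppp2r5c, and the next, of 45.9 and 167491 bp from the Dio3 start, was 503 bp from it. At Dio2 the pair past the 3′ end had no nearer gene than Dio2 itself. These neighbours were named after their values were seen.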
